A study of Mus musculus with 4 samples.

Results

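Innate sensing and NF-kB signalling in the mouse intestinal epithelium was described here through 58 genes, listed by their known roles as pattern receptors, adaptors, kinases, NF-kB subunits, inhibitors and induced cytokines. The rule uses no measured value, but the list was drawn up with earlier results of these data known. Of these, 46 had a probe set assigned to them alone and were measured, among 12393 genes tested. The other 12, Nod1, Nod2, Ticam1, Ticam2, Irak2, Irak3, Irak4, Ripk2, Traf3, Chuk, Nfkb1 and Cyld, had no probe set in the annotation used and were not analysed here. RNA was hybridised to 4 Affymetrix mouse arrays, 1 per sample, from the proximal intestinal epithelium of C57BL/6 mice aged 4 to 6 weeks. The stem group (2 arrays) held wild-type Lgr5(hi) stem cells, obtained by flow cytometric sorting. The enterocyte group (2 arrays) held differentiated villus cells isolated with EDTA, whose genotype was a conditional epithelial knockout of Atoh1. Atoh1 is needed to form secretory cell types such as goblet and Paneth cells. Tamoxifen at 1 mg per day for 5 days and a wait of 5 days are given for all 4 samples by the labels, also for the wild-type ones. The Cre driver, the animals behind each sample and any pooling are not stated by the labels. The groups differ at once in cell type, genotype and isolation, and fewer cells of a type cannot be told apart from less RNA per cell in such bulk samples.

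Toll-like receptors recognise microbial molecules at the cell surface or in endosomes and signal through adaptors such as Myd88 and Tirap to IRAK kinases, TRAF ubiquitin ligases and the TAK1 kinase complex. These activate the IKK kinases, which mark IkB proteins for destruction and so free NF-kB dimers to enter the nucleus and switch on cytokines and the pathway's own inhibitors. The intestinal epithelium lies next to the gut microbiota, and its inhibitors, among them Sigirr, Tollip and Tnfaip3, are known to restrain this response there.

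The targeted gene Atoh1 lay at log2 7.43 and 7.71 in the stem arrays, against 5.06 and 5.28 in the enterocyte arrays. All 11 measured stem cell markers were lower and all 12 enterocyte markers higher in the enterocyte arrays by limma. Each label thus matched the markers of its own cell type. Secretory markers were also bright in the stem arrays. The summed intensity of 5 Paneth cell markers was 35715 and 48495 there, against 984 and 6375 in the enterocyte arrays. That of 7 goblet cell markers was 35921 and 42105 against 647.6 and 1195.5. For 11 enteroendocrine cell markers it was 9737 and 12083 against 970 and 868. Their part in the differences of the members was not tested. A background level was set at log2 6.01, the 0.9 quantile of the mean levels of 33 genes known from other organs. A level below it is not distinguished from background. Replicates correlated across genes at r = 0.996 (stem) and 0.992 (enterocyte), and the groups at 0.890 to 0.898. RNA quality differed between the groups. The 3′ minus 5′ difference of the Gapdh control probe sets was 1.70 and 1.92 (log2) in the stem arrays, against 0.15 and 0.17 in the enterocyte arrays, and that of Actb was 2.06 and 2.11 against 0.56 and 0.50. The hybridisation controls differed as well, by -2.548 to -1.90 for 6 bioB probe sets, -0.80 to -0.67 for 4 bioC, -0.71 to -0.58 for 4 bioD and -0.052 to -0.00094 for 4 cre probe sets. The part of these in the gene differences was not tested.

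Genes of innate sensing and NF-kB signalling did not move together. Of 46 members, 9 passed as higher and 7 as lower in enterocytes at an adjusted p under 0.05 (limma over all 12393 genes), and 30 did not pass. That is 34.8% of members, against 40.6% of all genes tested, of which 18.2% were higher and 22.4% lower. The median log2 difference (enterocyte minus stem) was 0.06 over the members and -0.003 over all genes. Tollip, a brake on receptor signalling, was the member with the largest rise, and Irak1, the kinase next to the receptor complex, had the largest fall. Past the threshold and at least 2-fold, 1 member was higher (Tollip) and 4 lower (Irak1, Nfkb2, Tlr1 and Ikbke), where 10.8% and 13.6% of all genes met these marks. The groups did not overlap for 35 of 46 members (76.1%), against 65.3% of all genes; the enterocyte arrays lay above in 18 (30.5% of all genes) and below in 17 (34.8% of all genes). The calls depended on the scaling and on which arrays were used. Centring each array on the median of 11 reference genes shifted the median of all genes to -0.46 and gave 4 members higher and 21 lower, while centring on array medians shifted it to 0.22 and gave 18 higher and 9 lower. Under reference gene centring 15 of the 16 called members kept their direction, all but Nfkbiz. Without stem replicate 1 or stem replicate 2 no gene passed anywhere in the table (0 members by limma, with 7 higher and 10 lower at an unadjusted p under 0.05 without the first, and 9 and 8 without the second). Without enterocyte replicate 1, Tollip, Nfkbib, Irak1 and Ikbke still passed (2 higher, 2 lower), and without enterocyte replicate 2 these and Sigirr (3 higher, 2 lower).

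**Figure D1:**
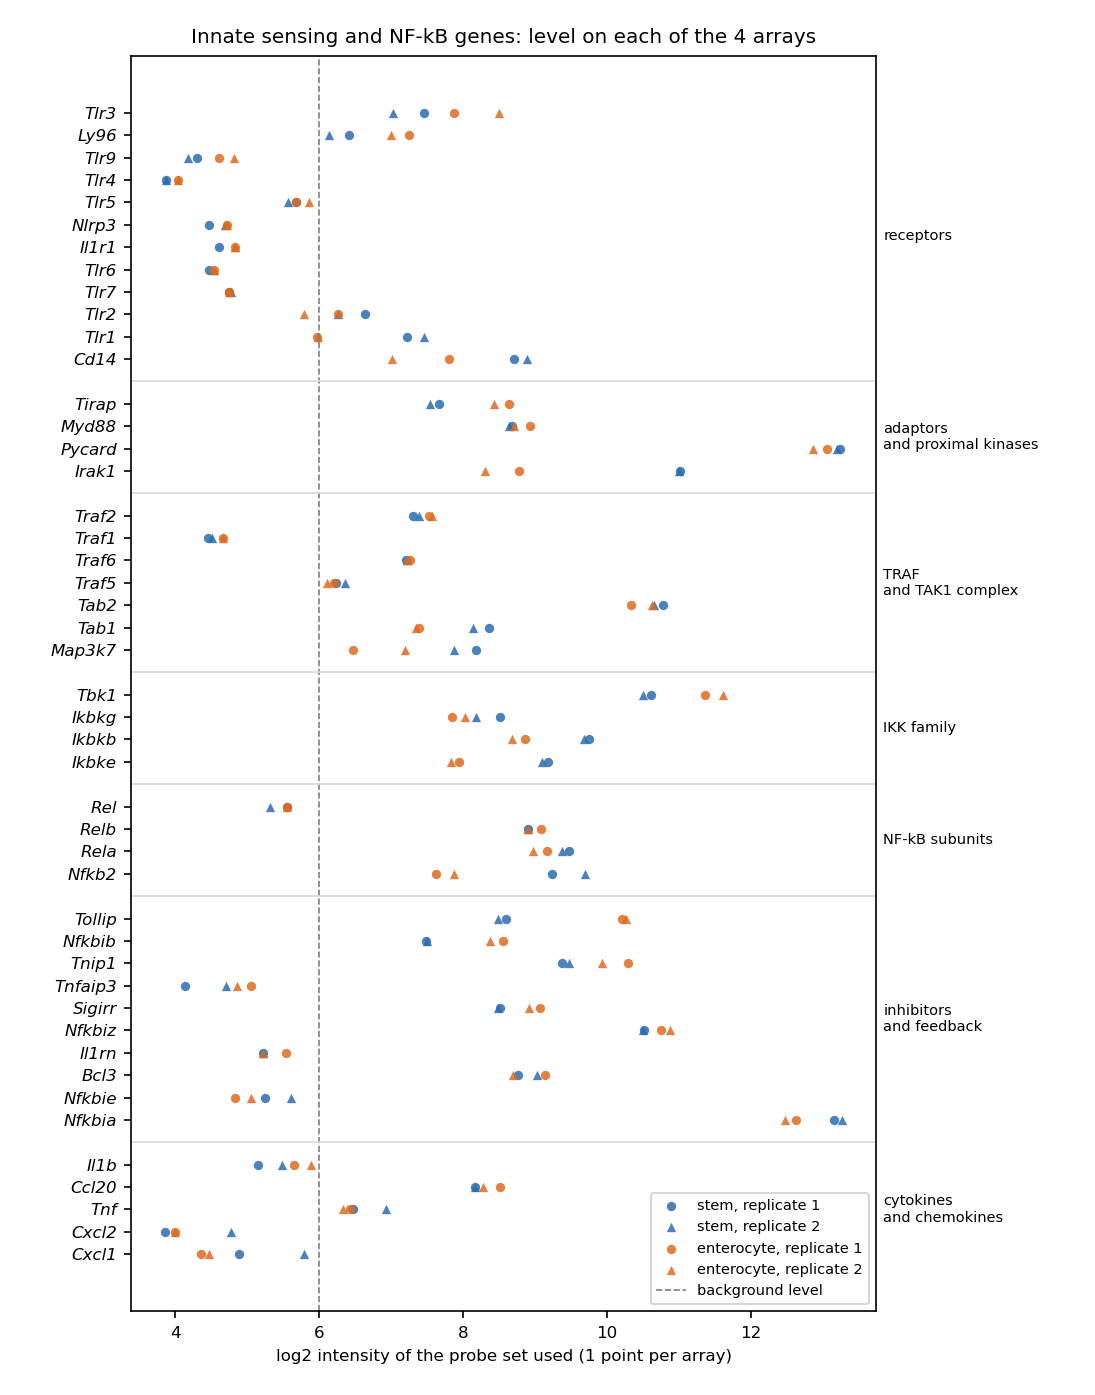
Level of each of the 46 measured members on each array (log2 intensity of the probe set used, horizontal axis), grouped by role and, within a role, ordered by the difference between groups. Blue marks the 2 stem arrays, orange the 2 enterocyte arrays, and the dashed line the background level of 6.01; 15 members lie left of it in both groups, most of them receptors, cytokines and feedback genes.

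Among the receptors, 12 of 14 were measured, and 2 were higher, 1 lower and 9 not past the threshold. In 7 of the 12 both groups lay below background, so that most Toll-like receptors could not be followed with these probe sets. Tlr1, which pairs with Tlr2 to bind bacterial lipopeptides, lay at log2 7.22 and 7.46 in the stem arrays, against 5.98 and 5.99 in the enterocyte arrays. Both enterocyte arrays were under the background level, and the fall of Tlr1 was at least 2.52-fold (-1.36 ± 0.11 SE on the log2 scale, with 2 arrays in each group; limma adjusted p = 0.00593). Its partner Tlr2 lay at 6.64 and 6.27 against 6.27 and 5.79, with overlapping groups and a difference of -0.42 ± 0.24 SE that did not pass (adjusted p = 0.285).

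Cd14, the co-receptor that hands lipopolysaccharide to Tlr4, lay at 8.72 and 8.90 in the stem arrays, against 7.81 and 7.01 in the enterocyte arrays. The groups were apart, but the enterocyte replicates differed by more than the stem replicates did, and the difference of -1.40 ± 0.33 SE was just short of the threshold (adjusted p = 0.0502). It passed in 11 of 19 alternative settings, among them quantile normalization (-1.24, adjusted p = 0.0281). Ly96, the secreted partner of Tlr4 in binding lipopolysaccharide, went the other way, from 6.417 and 6.137 in the stem arrays to 7.255 and 7.005 in the enterocyte arrays. It rose 1.81-fold (0.85 ± 0.16 SE, adjusted p = 0.0289), a call that did not hold under reference gene centring (0.40, adjusted p = 0.0525) or when values under the background level were lifted to it (adjusted p = 0.0801). Tlr4 itself lay at 3.88 and 3.88 against 4.04 and 4.04, far below background in every array, so its difference of 0.16 ± 0.05 SE (adjusted p = 0.0953) carries no level. It was -0.30 under reference gene centring (adjusted p = 0.0998) and 0.38 under array median centring (adjusted p = 0.0253).

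Tlr5, the flagellin receptor, stayed under the background level as well, at 5.69 and 5.56 in the stem arrays, against 5.69 and 5.87 in the enterocyte arrays, with overlapping groups (0.15 ± 0.10 SE, adjusted p = 0.334). It was -0.31 under reference gene centring (adjusted p = 0.0961) and 0.38 under array median centring (adjusted p = 0.0491). Tlr9, the endosomal receptor for bacterial DNA, passed the test at 4.31 and 4.18 against 4.61 and 4.82 (0.47 ± 0.11 SE, adjusted p = 0.0467). All 4 of these values were below background, and the difference was 0.01 under reference gene centring. Tlr3, the receptor for double-stranded RNA, was measured above background, at 7.46 and 7.03 in the stem arrays, against 7.87 and 8.51 in the enterocyte arrays. Its difference of 0.95 ± 0.31 SE did not pass (adjusted p = 0.101). Its dimmer probe set, below background in the stem arrays, did pass (adjusted p = 0.0151, over all probe sets) and was at least 1.76-fold higher. The remaining receptors, Tlr6, Tlr7, Nlrp3 and Il1r1, were below background in both groups and did not pass.

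Beside the receptors stand the markers of blood cells, in which many of these receptors are also expressed. Of 20 measured T lymphocyte markers 14 passed as higher and 0 as lower (limma), and their summed intensity was 1205 and 1483 in the stem arrays against 9686 and 12829 in the enterocyte arrays. Cd2, Cd5, Cd8b1, Il2rb and Xcl1 were below background in both groups. Of 17 macrophage and dendritic cell markers 5 passed as higher and 2 as lower, with sums of 3514 and 4200 against 7580 and 8309. That sum rests on Ctss, a protease gene: the other 16 markers summed to 1954 and 2789 in the stem arrays against 822 and 944, the opposite direction. This reversal rests in turn on Lyz2, at log2 10.39 and 11.10 in the stem arrays, against 5.12 and 7.03 in the enterocyte arrays. By gene, 12 of the 17 differences were positive and 5 negative, so neither sum stands for the list. Without its brightest gene, Gzma, the T lymphocyte sum was still higher, at 5843 and 7861 against 1114 and 1306. In 10 of the 17 macrophage and dendritic cell markers both groups lay below background (Aif1, C1qa, C1qb, C1qc, Cx3cr1, Fcgr3, Itgam, Itgax, Mrc1 and Spi1), among them Fcgr3 and Itgax, which passed as higher. Of 8 B lymphocyte and plasma cell markers 0 passed, and 6 lay below background in both groups. Of 11 neutrophil and mast cell markers 1 passed as higher (Mpo), and 10, Mpo among them, lay below background in both groups. Tuft cell markers were higher in 8 of 9 cases. Goblet cell markers were lower in 7 of 7, Paneth cell markers in 3 of 5 and enteroendocrine cell markers in 7 of 11. Of the tuft cell markers called higher, Hpgds, Il25 and Ptgs2 were below background in both groups. The part of other cells in the differences of the members was not tested, and the stem samples were sorted while no sort is given for the villus samples.

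**Figure D2:**
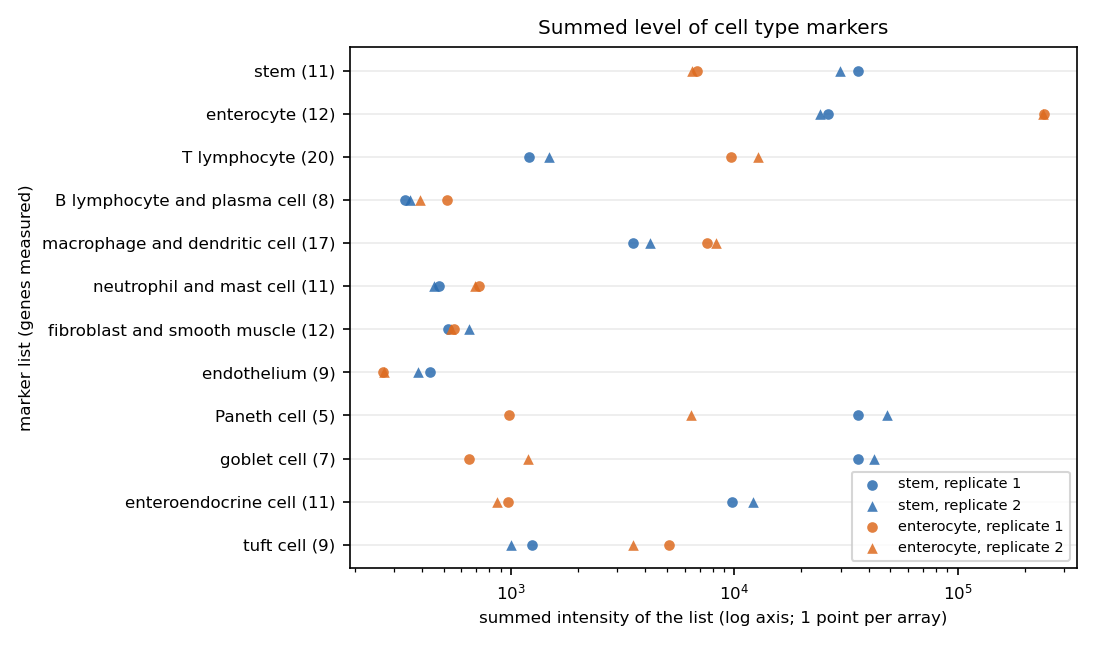
Summed intensity of each list of cell type markers (horizontal log axis) on each array, with the number of genes measured in brackets; blue marks the stem arrays and orange the enterocyte arrays. T lymphocyte and tuft cell sums are higher in both enterocyte arrays, and stem, Paneth, goblet and enteroendocrine cell sums are lower. The macrophage sum is higher with Ctss and lower without it, and each of these directions rests on 1 bright gene (Ctss and Lyz2).

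Of the adaptors and proximal kinases, 4 of 9 were measured; 1 was higher, 1 lower and 2 did not pass. Irak1, the kinase that Myd88 brings to the receptor, had log2 levels of 11.016 and 11.002 in the stem arrays, against 8.78 and 8.31 in the enterocyte arrays. It fell 5.52-fold (-2.47 ± 0.19 SE, adjusted p = 0.00587), and its groups were far apart. The probe set used is of a kind that may cross-hybridise with other genes. Without such probe sets the fall of Irak1 was smaller (-1.53, adjusted p = 0.00627). All 4 of its probe sets were lower, by differences from -1.27 to -2.47, each past the threshold. Tirap, which links Tlr2 and Tlr4 to Myd88, rose 1.91-fold, from 7.67 and 7.54 to 8.65 and 8.44 (0.93 ± 0.11 SE, adjusted p = 0.0115). Its second probe set did not bear this out, at -0.24 ± 0.10 SE (adjusted p = 0.161).

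Myd88, the adaptor shared by most Toll-like receptors and the interleukin-1 receptor, lay at 8.69 and 8.65 in the stem arrays, against 8.94 and 8.72 in the enterocyte arrays. Its difference of 0.16 ± 0.10 SE did not pass (adjusted p = 0.328). It was -0.30 under reference gene centring (adjusted p = 0.115) and passed as higher under array median centring (0.38, adjusted p = 0.0482). Pycard, the adaptor that assembles inflammasomes, was far above background in every array, at 13.24 and 13.19 against 13.07 and 12.87, and its difference of -0.25 ± 0.09 SE did not pass (adjusted p = 0.140). A dimmer probe set of Pycard gave -0.73 ± 0.13 SE (adjusted p = 0.0319).

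Among the TRAF proteins and the TAK1 complex, 7 of 8 were measured, and 1 was lower, 0 higher and 6 not past the threshold. Tab1, the activator subunit of TAK1, was the member that passed, at 8.36 and 8.14 in the stem arrays, against 7.39 and 7.35 in the enterocyte arrays. It fell 1.85-fold (-0.88 ± 0.10 SE, adjusted p = 0.0109). The kinase itself, encoded by Map3k7, gave contrary readings: its brightest probe set went from 8.18 and 7.88 to 6.48 and 7.20 (-1.19 ± 0.31 SE, adjusted p = 0.0633), and another of its 5 probe sets rose by 1.15 ± 0.20 SE (adjusted p = 0.0282). No direction is therefore given for Map3k7. Differences of the ubiquitin ligase and scaffold genes Traf1, Traf2, Traf5 and Traf6 lay between -0.14 and 0.20, with Traf1 below background in both groups. That of Tab2, the adaptor of TAK1, was -0.24 ± 0.14 SE.

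**Figure D3:**
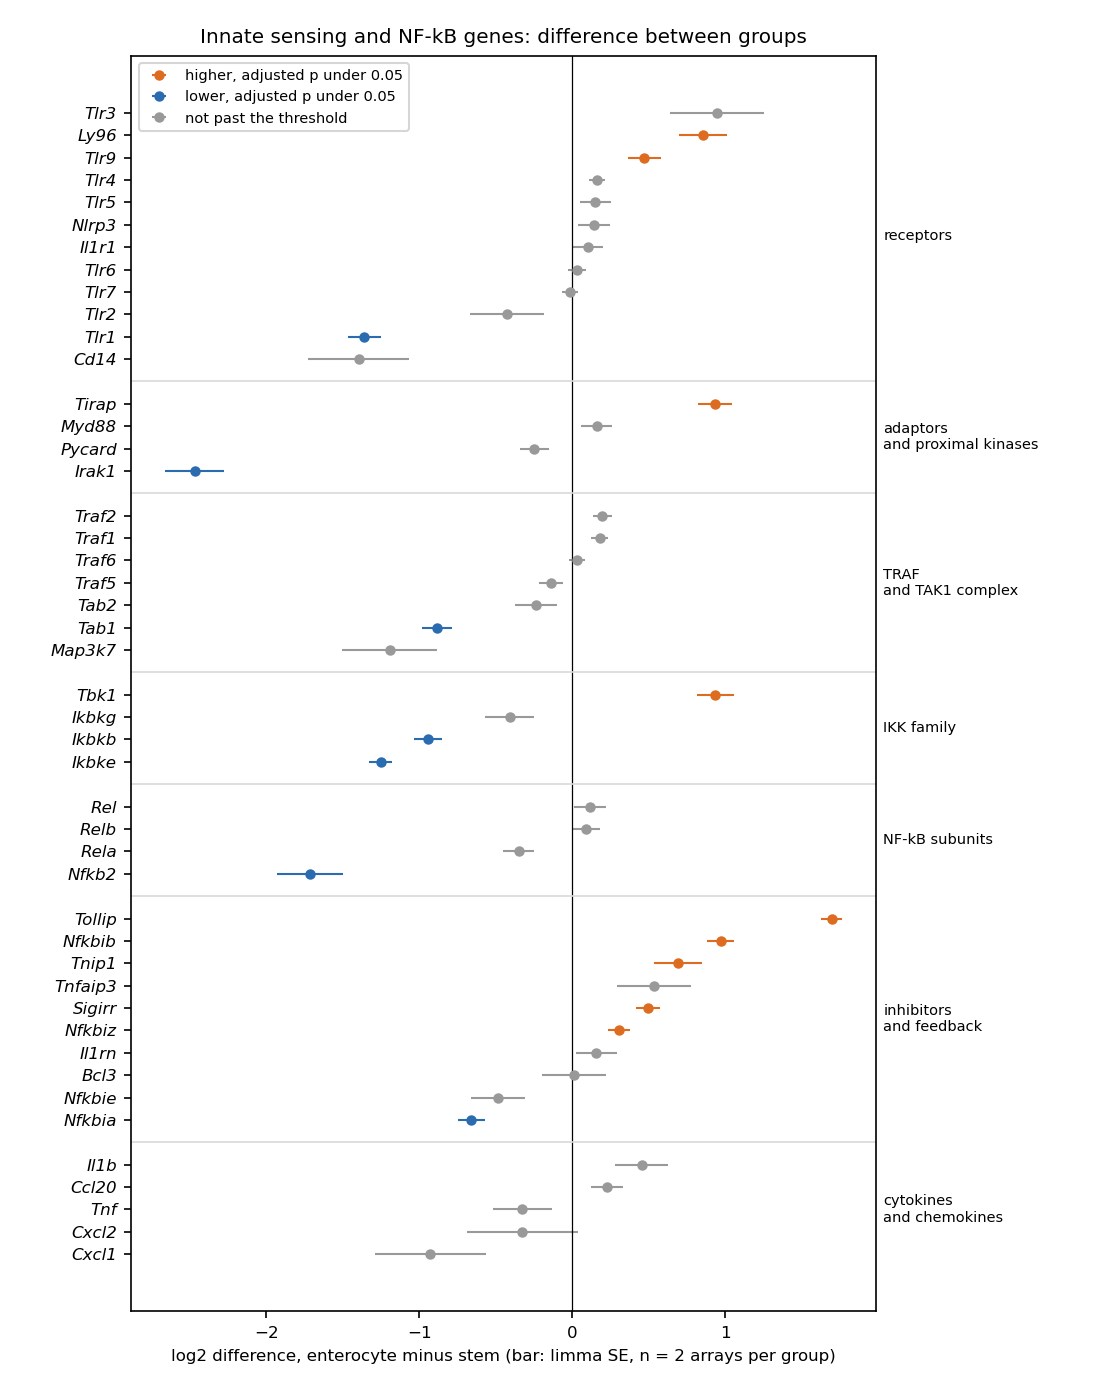
Difference between the groups for each of the 46 measured members (log2, enterocyte minus stem, horizontal axis; bars are limma standard errors, n = 2 arrays per group), grouped by role. Orange points (9 members) and blue points (7 members) passed an adjusted p of 0.05. The inhibitors and feedback regulators hold 5 of the 9 higher members, and the longest fall is that of Irak1 at -2.47.

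The IKK family was split. Of 5 genes 4 were measured, of which 1 was higher, 2 lower and 1 not past the threshold. Ikbke, an IKK-related kinase, fell 2.38-fold, from 9.18 and 9.10 in the stem arrays to 7.95 and 7.83 in the enterocyte arrays (-1.25 ± 0.08 SE, adjusted p = 0.00419). Its close relative Tbk1, which like Ikbke activates interferon regulatory factors, rose 1.91-fold, from 10.61 and 10.50 to 11.36 and 11.62 (0.93 ± 0.12 SE, adjusted p = 0.0140). The related kinases thus lay apart in opposite directions, Ikbke on 1 probe set and Tbk1 on 2, of which the dimmer gave 1.59 ± 0.12 SE.

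Ikbkb, the catalytic subunit that phosphorylates IkB in the classical pathway, fell from 9.76 and 9.68 to 8.87 and 8.69 (-0.94 ± 0.09 SE, adjusted p = 0.00812). That call rested on the brightest of 4 probe sets, as the other 3 lay between -0.09 and 0.02 and did not pass, 1 of them below background. Ikbkg, the regulatory subunit, had a difference of -0.41 ± 0.16 SE on its brightest probe set (adjusted p = 0.147), and its dimmest, called higher (adjusted p = 0.0389), was below background in both groups. Another probe set, above background, gave 0.32 ± 0.10 SE (adjusted p = 0.100).

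Among the NF-kB subunits 4 of 5 were measured, and 1 was lower, 0 higher and 3 not past the threshold. Nfkb2, the precursor of the p52 subunit, lay at 9.23 and 9.70 in the stem arrays, against 7.63 and 7.88 in the enterocyte arrays, a fall of 3.28-fold (-1.71 ± 0.22 SE, adjusted p = 0.0130). The probe set used is of a kind that may cross-hybridise with other genes, and the other probe set of Nfkb2 gave -0.35 ± 0.12 SE (adjusted p = 0.129). Rela, the main activating subunit of the classical pathway, lay at 9.47 and 9.38 against 9.18 and 8.98. Its groups did not overlap, but the difference of -0.35 ± 0.10 SE did not pass (adjusted p = 0.0779); under reference gene centring it was -0.81 and did (adjusted p = 0.0027). Relb, the partner of p52, was 8.90 in both stem arrays, against 9.09 and 8.90 in the enterocyte arrays, with overlapping groups, and Rel was below background in both groups.

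The inhibitors and feedback regulators held more rises than any other role. Of 12 genes 10 were measured, and 5 were higher, 1 lower and 4 not past the threshold, a share of 50% higher against 18.2% over all genes. In the other roles 0% to 25% of measured members were higher and 0% to 50% lower, against 18.2% and 22.4% of all genes. The lists are small and were chosen with earlier results known, so these shares are a description. Tollip, which binds IRAK kinases and sorts receptors to endosomes, rose 3.24-fold, from 8.60 and 8.49 in the stem arrays to 10.21 and 10.27 in the enterocyte arrays (1.70 ± 0.07 SE, adjusted p = 0.00298). Its dimmer probe set, below background in the stem arrays, was at least 1.34-fold higher. Nfkbib, the inhibitor IkB-beta, rose 1.96-fold, from 7.49 and 7.50 to 8.55 and 8.37 (0.97 ± 0.09 SE, adjusted p = 0.00721). It had 1 probe set, also of a kind that may cross-hybridise with other genes.

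Tnip1, which binds the ubiquitin-editing enzyme Tnfaip3, rose 1.61-fold, from 9.38 and 9.47 in the stem arrays to 10.30 and 9.94 in the enterocyte arrays (0.69 ± 0.16 SE, adjusted p = 0.0459). The call did not hold under reference gene centring, where the difference was 0.23 (adjusted p = 0.270). Sigirr, an orphan receptor that damps interleukin-1 and Toll-like receptor signalling, rose 1.41-fold, from 8.51 and 8.49 to 9.08 and 8.92 (0.50 ± 0.08 SE, adjusted p = 0.0215), and was 0.04 under reference gene centring (adjusted p = 0.822). Nfkbiz, a nuclear IkB protein, rose by 0.31 ± 0.07 SE (adjusted p = 0.0459), its second probe set by 0.97 ± 0.19 SE. The calls of Tollip and Nfkbib held under that centring, and those of Tnip1, Sigirr and Nfkbiz did not.

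Nfkbia, which encodes IkB-alpha, the inhibitor that NF-kB itself induces, was the 1 member of this role called lower. It was far above background, at 13.17 and 13.27 in the stem arrays, against 12.64 and 12.48 in the enterocyte arrays, and fell 1.58-fold (-0.66 ± 0.09 SE, adjusted p = 0.0151). All 4 of its probe sets were lower, by -0.66 to -0.75, and 2 of them passed. Tnfaip3, the enzyme A20 that ends NF-kB signalling, was below background at 4.15 and 4.71 against 5.06 and 4.86 (0.53 ± 0.24 SE, adjusted p = 0.195; 0.76 and adjusted p = 0.0491 under array median centring). Among the others, Bcl3 differed by 0.01 ± 0.21 SE with overlapping groups, and Nfkbie (-0.49 ± 0.18 SE, adjusted p = 0.127) and Il1rn were below background in both groups.

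**Figure D4:**
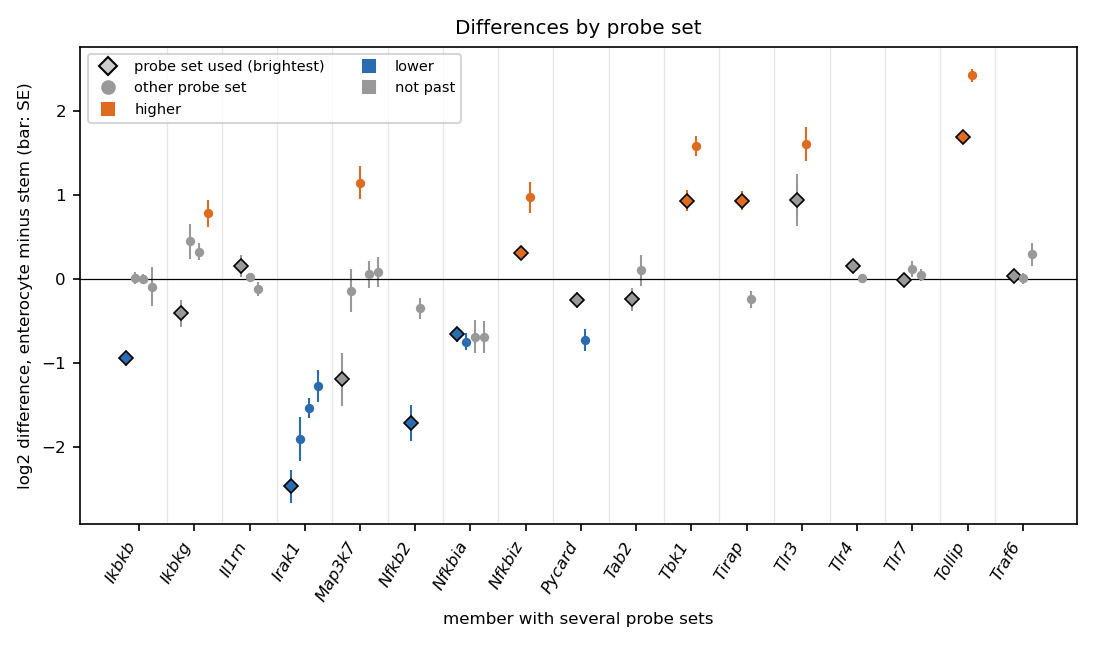
Difference of each probe set (log2, enterocyte minus stem, vertical axis; bars are limma standard errors) for the 17 members with several probe sets. Diamonds mark the probe set used, orange and blue a call as higher or lower over all probe sets; Irak1, Nfkbia, Tbk1 and Tollip point 1 way throughout, while Ikbkg, Map3k7 and Tirap hold both signs.

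The probe sets matter for how far a member can be read. Of the 46 members 17 had several probe sets, and in 8 of these (Ikbkb, Ikbkg, Map3k7, Nfkb2, Nfkbia, Pycard, Tirap and Tlr3) the probe sets differed in call, for Ikbkg through a probe set below background. In 0 of the 17 did they pass in opposite directions, though 7 held both signs. The place of each probe set along its transcript was not used here, so the part of the 3′ to 5′ difference given above was not tested.

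Induced cytokines and chemokines gave no call: 5 of 5 were measured, and 0 were higher or lower by limma, with 0 at an unadjusted p under 0.05. Ccl20, which attracts lymphocytes and dendritic cells to the epithelium, was above background, at 8.17 in both stem arrays, against 8.52 and 8.28 in the enterocyte arrays. Its difference was 0.23 ± 0.11 SE (adjusted p = 0.203). It was -0.23 under reference gene centring (adjusted p = 0.215), and it passed as higher under array median centring (0.45, adjusted p = 0.0330) and quantile normalization (0.41, adjusted p = 0.0457). Tnf, the tumour necrosis factor, lay slightly above background at 6.48 and 6.94 against 6.44 and 6.33, a difference of -0.33 ± 0.19 SE (adjusted p = 0.297). The neutrophil chemokine genes Cxcl1 and Cxcl2 and the cytokine gene Il1b were below background in both groups. Of these, Cxcl1 had the widest range over the 4 arrays, at 4.89 and 5.79 in the stem arrays, against 4.36 and 4.47 in the enterocyte arrays.

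NF-kB acts through kappaB sites in promoters, so the promoter windows of members, from 250 bases before to 50 after the annotated transcript start, were searched for the kappaB consensus on both strands (RefSeq, GRCm38.p6). The consensus is given by name, since it holds ambiguous letters, and matches on both strands can overlap. Windows were found for 46 members, 37 of them measured, and 18 of the 46 (39.1%) held a match, against 9.55% of all 27025 genes with a window and 8.46% of all windows. Among measured members a match stood in 1 of 6 that were higher, 3 of 5 that were lower and 12 of 26 that did not pass. The members were listed for their part in the pathway and include known NF-kB targets, so these shares describe the list, and a match shows letters, not binding. Below are the windows of the feedback genes Nfkbia (lower) and Tnip1 (higher), of the subunit gene Nfkb2 (lower), of the chemokine gene Cxcl1 (below background) and of Tollip, the member with the largest rise. Each is printed 5′ to 3′ on the strand of the gene, with matches in capitals.
Nfkbia, chr12:55492598-55492897, minus strand: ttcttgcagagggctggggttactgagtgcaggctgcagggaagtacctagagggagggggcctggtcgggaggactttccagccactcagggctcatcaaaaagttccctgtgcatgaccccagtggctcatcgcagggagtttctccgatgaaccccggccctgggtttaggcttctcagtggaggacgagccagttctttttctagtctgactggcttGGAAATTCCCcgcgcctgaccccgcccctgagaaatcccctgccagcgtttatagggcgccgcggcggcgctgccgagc
Tnip1, chr11:54962891-54963190, minus strand: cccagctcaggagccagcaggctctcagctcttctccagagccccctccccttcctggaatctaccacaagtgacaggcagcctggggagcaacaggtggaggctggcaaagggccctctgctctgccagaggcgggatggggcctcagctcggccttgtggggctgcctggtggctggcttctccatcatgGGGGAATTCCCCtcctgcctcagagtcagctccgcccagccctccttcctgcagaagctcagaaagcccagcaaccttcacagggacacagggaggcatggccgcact
Nfkb2, chr19:46304487-46304786, plus strand: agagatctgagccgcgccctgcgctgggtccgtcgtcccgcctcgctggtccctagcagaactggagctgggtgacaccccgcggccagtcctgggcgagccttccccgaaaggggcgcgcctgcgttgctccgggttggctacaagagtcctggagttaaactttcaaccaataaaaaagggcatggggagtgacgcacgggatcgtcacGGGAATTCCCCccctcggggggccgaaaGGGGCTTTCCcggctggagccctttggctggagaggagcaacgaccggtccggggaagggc
Cxcl1, chr5:90890995-90891294, plus strand: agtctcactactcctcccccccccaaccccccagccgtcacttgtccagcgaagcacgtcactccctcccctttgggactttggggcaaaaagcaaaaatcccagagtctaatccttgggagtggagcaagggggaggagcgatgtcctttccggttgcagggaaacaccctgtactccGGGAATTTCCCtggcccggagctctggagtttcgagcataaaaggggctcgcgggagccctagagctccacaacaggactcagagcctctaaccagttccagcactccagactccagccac
Tollip, chr7:141902412-141902711, minus strand: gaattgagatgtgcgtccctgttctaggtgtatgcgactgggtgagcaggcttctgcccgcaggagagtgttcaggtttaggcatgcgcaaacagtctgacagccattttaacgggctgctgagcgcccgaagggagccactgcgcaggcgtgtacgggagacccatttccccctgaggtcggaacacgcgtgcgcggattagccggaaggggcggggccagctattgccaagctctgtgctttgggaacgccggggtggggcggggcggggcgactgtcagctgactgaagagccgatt
The match in Nfkbia began 29 bases before the start, and the overlapping matches in Tnip1 58 bases before it. In Nfkb2, 1 run of matches began 39 bases and a further match 11 bases before the start of the first of 3 windows. In Cxcl1 the matches began 71 bases before. The window of Tollip held no match, which says only that these letters are not in it. Of the 12 measured members with a match that did not pass, 7 were below background in both groups and 5 were not (Tlr2, Tlr3, Map3k7, Bcl3 and Ccl20).

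Further genes of the pathway that are not members also held calls in both directions. Of 80 measured, 20 were higher (25%, against 18.2% of all genes), 11 lower (13.8%, against 22.4%) and 49 not past the threshold, at a median log2 difference of 0.08. Among 21 other sensors and inflammasome genes, 6 were higher (28.6%) and 4 lower (19%). The cytokine gene Il18, which inflammasomes activate, lay at 7.74 and 7.80 in the stem arrays, against 11.57 and 11.19 in the enterocyte arrays, a rise of 12.2-fold (3.61 ± 0.16 SE, adjusted p = 0.00323). Zbp1, a sensor of nucleic acids, rose 10.2-fold (3.35 ± 0.19 SE), and Mavs, the adaptor of RNA sensors, 3.67-fold (1.88 ± 0.21 SE). Casp4, the caspase that senses intracellular lipopolysaccharide in mice, fell 4.69-fold, from 9.92 and 9.88 to 7.61 and 7.73 (-2.23 ± 0.07 SE, adjusted p = 0.00261). Pglyrp1, a peptidoglycan-binding protein, fell 3.64-fold (-1.86 ± 0.10 SE) and the inflammasome gene Nlrp6 2.05-fold (-1.04 ± 0.12 SE).

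Among 26 other adaptors, kinases and ubiquitin enzymes, 4 were higher (15.4%, against 18.2% of all genes) and 3 lower (11.5%, against 22.4%). Irf7, an interferon regulatory factor, rose 3.57-fold (1.84 ± 0.29 SE), Tradd, the adaptor of tumour necrosis factor receptors, 2.40-fold (1.26 ± 0.15 SE), and Nfkbil1, an IkB-like gene, fell 3.02-fold (-1.60 ± 0.08 SE). Xiap, an inhibitor of apoptosis that takes part in Nod2 signalling, had 1.77 ± 0.33 SE on its brightest probe set and -0.05 as the median of its 6 probe sets. Ecsit, an adaptor that binds Traf6, fell by 0.80 on the log2 scale, and Peli2, a ubiquitin ligase for IRAK kinases, was called lower while below background in both groups. Among 33 cytokine receptors and NF-kB targets, 10 were higher (30.3%) and 4 lower (12.1%). The chemokine gene Ccl5 rose 15.0-fold (3.91 ± 0.40 SE); it is also in the T lymphocyte list, 14 of whose 20 members were higher. Cxcl16, a membrane-bound chemokine, rose 4.01-fold (adjusted p = 0.0104), and Csf2, a growth factor of myeloid cells, was at least 1.24-fold higher (1.74 ± 0.21 SE). Tnfrsf1b, a receptor for tumour necrosis factor, was lower by -0.61 ± 0.13 SE, with -0.10 on its dimmest probe set. Il1rap, the shared chain of interleukin-1 family receptors, was below background in the enterocyte arrays and at least 1.11-fold lower (-0.43 ± 0.08 SE). The dimmest probe set of Il1rap gave 0.04. Icam1, an adhesion molecule, was called lower but lay below background in both groups.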

How the data were processed

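The authors deposited 1 normalized intensity per probe set and array on a linear scale, made with RMA per the submitters' processing notes (no version given). The values were converted to log2 without a pseudocount. No column lacked a sample. Control probe sets (64) were left out. Of 22690 probe sets, 20380 carried exactly 1 symbol in the platform annotation (691 carried several, and 1606 were not listed). Names were checked through Entrez identifiers, of which 20351 matched RefSeq, GRCm38.p6. The probe set with the highest mean was used for each of 12393 genes. The groups were compared by limma 3.58.1 (lmFit, eBayes; R 4.3.3). Two-sided p-values were adjusted by the Benjamini-Hochberg method across all genes tested, with a threshold of 0.05, or across all probe sets where single probe sets are described; errors are limma's SE. The fit had 2 residual and 1.23 prior degrees of freedom, and steps were tested on simulated data. Where 1 group lay below background, "at least" gives the fold with its values raised to that level. Members, lists and the naming rule were chosen with earlier results of these data known. The rule names up to 4 members per role and direction past the threshold (3 per list for other genes) and 13 members whatever their p. Values of Tlr2, Tlr3, Pycard, Map3k7, Tab2, Ikbkg, Relb, Nfkbiz, Nfkbie, Bcl3 and Cxcl1, which it does not ask for, were chosen after they were seen. The labels call samples biological replicates without naming animals, so p-values measure the spread between these arrays, and their number limits the precision.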

Additional observations from a re-analysis of the deposited data

How the results depend on the processing

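In 19 alternative settings, 580 of 763 values of named genes kept their direction and side of the threshold, 149 no longer passed, 21 newly passed and 13 turned. Members higher and lower numbered 9 and 7 as reported. Leaving out 1 array gave 0 to 3 higher and 0 to 2 lower members, 0 to 6 higher and 0 to 5 lower other pathway genes, the zeros without either stem array, where fewer arrays remain. Other settings that moved a count by over 1.5 times were values raised to the background level (5 members higher; 6 other pathway genes lower), array median centring (18 members higher; 34 other pathway genes higher and 7 lower), reference gene centring (4 members higher and 21 lower; 35 other pathway genes lower), reference gene difference centring (4 higher and 18 lower; 32 other pathway genes lower), quantile normalization (11 members lower) and the dimmest probe set (13 other pathway genes higher). The members' median difference moved to -0.14 without genes below background, by their mean or, as added after seeing the data, in both groups, where 31 members remain. It was 0.29 with array medians, -0.40 with reference genes and -0.25 with reference gene differences. Signs turned under reference gene centring and reference gene difference centring for Ccl20 (-0.23 and -0.082), Myd88 (-0.30 and -0.15), Tlr4 (-0.30 and -0.15) and Tlr5 (-0.31 and -0.16). With the median over probe sets they turned for Ikbkb (0.0076), Il1rap (0.11) and Xiap (-0.047), and with the dimmest probe set for Il1rap (0.041) and Tirap (-0.24). The cause of these changes was not tested. With the replicate block, 7 members were higher and 8 lower. Same-numbered arrays deviated with r = 0.050 across genes. With 2 arrays per group this cannot decide whether the numbers pair the samples, and the labels do not say. Signal near background limits the receptors and cytokines most.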
